A study of Mus musculus with 35 samples.

Results

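The 7 genes described here are the ligands *Csf1* and *Il34*, their shared receptor gene *Csf1r*, and *Spi1*, *Irf8*, *Runx1* and *Cebpa*, which encode transcription factors of the myeloid lineage. They were chosen by name as the CSF1 receptor axis with its myeloid regulators, among 53465 genes listed for bulk RNA-seq. All 7 were among the 19765 genes tested there, and 6 were among the 9281 genes tested in single cells, since *Il34* had too few transcripts for the filter on low counts. The question was which cell population of the embryonic brain carries transcripts of the ligands for the receptor on microglia.

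The cells came from dissociated brains of wild-type mouse embryos at E14.5, and no transgene or treatment was used. Bulk RNA-seq covered 12 libraries, with microglia (Mi), endothelial (Ec), mural (Mu) and neural (N) cells separated by FACS from each of 3 brains. A library is named by its population and its brain, so that N-343, Mu-343, Ec-343 and Mi-343 came from 1 brain, here called the brain of Mi-343. Neural cells were those negative for every marker used (CD45, CD41, CD11b, PECAM1, CD102 and PDGFRβ), mural cells, meaning pericytes and vascular smooth muscle cells, were high for PDGFRβ, endothelial cells carried PECAM1 and CD102, and microglia carried CD11b with medium CD45. Single wild-type cells were sorted into wells of 3 plates (11 libraries) and sequenced with mCEL-Seq2, a method that counts molecules by identifiers from the 3′ ends of transcripts. The well table describes the microglial gate as CD41 positive with medium CD45. A further 12 single-cell libraries of *Mof* knockout brains were not used here. Libraries of the neural population were made with the TruSeq kit and those of the other 3 populations with the SMART-Seq v4 kit, so that kit and population cannot be told apart for any difference that involves neural cells.

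Microglia are the resident macrophages of the brain and are seeded from the yolk sac in the embryo. CSF1R is a class III receptor tyrosine kinase of the mononuclear phagocyte lineage, on which microglia depend for survival and proliferation. It is activated by the cytokine CSF1 and by IL-34, a ligand unrelated in sequence that is known for its production by neurons of the postnatal forebrain and by keratinocytes. PU.1 (encoded by *Spi1*), IRF8, RUNX1 and C/EBPα (encoded by *Cebpa*) are transcription factors of myeloid development, and PU.1 and RUNX1 act at the regulatory elements of *Csf1r* itself.

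The sorted bulk libraries held 17638358 to 98414914 reads on genes, and 1 read was worth 0.264 to 1.77 normalized counts. The summed level of 10 microglia markers was 334520.0 to 358278 normalized counts in microglia and at most 291 in the libraries of any other population. The summed mural, endothelial and neural marker lists were each highest in their own population, but 7 markers of neural progenitors summed higher in mural (47441 to 66599) than in neural libraries (43263 to 47059.8), through *Fabp7* and *Hes1*, while the other 5 had lower means there. The microglial libraries also held *Mrc1*, a marker of border macrophages, at 7987 to 10492 normalized counts and *Ccr2*, a monocyte marker, at 1113, 1067 and 4333 in Mi-340, Mi-343 and Mi-346. A normalized count from a sorted population is a level for the whole population, in which fewer cells of a type and less RNA per cell cannot be told apart. In single cells 686 wells of the 4 gates were kept (more than 1500 transcripts), with 123 neural, 210 mural, 225 endothelial and 128 microglial cells, and a further 23 cells from another PDGFRβ gate passed this depth and were not compared. The median depth was 7717, 6885, 6408 and 10761 transcripts per cell in that order of the 4 gates, and plate 3 gave only 6 to 14 cells per gate.

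In GRCm38, *Csf1* (ENSMUSG00000014599) lies on the minus strand of chromosome 3 from 107741048 to 107760469 and *Il34* (ENSMUSG00000031750) on the minus strand of chromosome 8 from 110741829 to 110805924. *Spi1* (ENSMUSG00000002111) lies on the plus strand of chromosome 2 from 91082390 to 91115756. *Irf8* (ENSMUSG00000041515) is on the plus strand of chromosome 8 from 120736358 to 120756694, *Runx1* (ENSMUSG00000022952) on the minus strand of chromosome 16 from 92601466 to 92826149, and *Cebpa* (ENSMUSG00000034957) on the plus strand of chromosome 7 from 35119293 to 35121928. The annotated exons of *Il34* overlap the antisense transcripts *Gm15894* (22 bases) and *Gm15895* (75 bases). Whether reads were counted by strand is not given in the sources used here, so reads of these shared bases could not be assigned.

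Promoter sequences of 4 of the 7 genes were matched by symbol in a table of RefSeq promoters (GRCm38.p6), namely *Csf1*, *Irf8*, *Runx1* and *Cebpa*. They are shown from 200 bases before to 25 bases after the transcription start, because these genes, whose levels differ together between microglia and the other populations, include the ligand *Csf1* and 3 of the regulators. Windows of 300 bases (250 before to 50 after the start) were searched on both strands for the PU.1 box GAGGAAGT and its core GAGGAA, the RUNX word TGTGGT, the C/EBP word TTGCNNAA, the interferon-stimulated response element (the IRF word) and the TATA word TATAAA. The core is contained in the longer PU.1 box, so that those matches overlap. Capitals mark a match.
*Csf1*, chr3:107760445-107760669, minus strand, with no match to any of these words: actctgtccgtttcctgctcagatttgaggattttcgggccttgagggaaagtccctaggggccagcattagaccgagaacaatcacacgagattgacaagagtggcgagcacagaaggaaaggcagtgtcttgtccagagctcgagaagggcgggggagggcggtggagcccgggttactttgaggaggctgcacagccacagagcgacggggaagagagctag
*Irf8*, chr8:120736158-120736382, plus strand, with the TATA word in capitals: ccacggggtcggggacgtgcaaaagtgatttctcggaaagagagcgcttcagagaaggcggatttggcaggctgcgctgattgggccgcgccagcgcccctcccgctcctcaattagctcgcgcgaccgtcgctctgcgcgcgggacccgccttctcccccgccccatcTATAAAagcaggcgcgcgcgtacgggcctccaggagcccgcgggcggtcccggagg
*Runx1*, proximal start, chr16:92697305-92697529, minus strand, with the PU.1 core (read on the other strand) in capitals: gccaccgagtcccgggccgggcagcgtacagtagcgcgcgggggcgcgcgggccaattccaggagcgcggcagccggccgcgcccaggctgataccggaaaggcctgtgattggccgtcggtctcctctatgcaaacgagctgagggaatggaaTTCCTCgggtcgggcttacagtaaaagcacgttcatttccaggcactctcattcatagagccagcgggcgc
*Cebpa*, chr7:35119093-35119317, plus strand, with the TATA word in capitals: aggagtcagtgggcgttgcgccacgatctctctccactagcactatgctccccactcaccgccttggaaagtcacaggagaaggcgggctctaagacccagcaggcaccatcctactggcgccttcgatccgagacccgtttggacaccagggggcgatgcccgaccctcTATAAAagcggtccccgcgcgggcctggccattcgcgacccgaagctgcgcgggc

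The TATA word began 31 bases before the *Irf8* start and 30 bases before the *Cebpa* start, and 13.6% of 32851 promoter windows of that length held it. The PU.1 core began 46 bases before the proximal *Runx1* start, and 28.3% of windows held it. In the window of the distal *Runx1* start the RUNX word stood on the other strand at 29 and 37 bases after the start, and 16.8% of windows held it. The whole PU.1 box (3.2% of windows), the C/EBP word (10.8%) and the IRF word (3.44%) were not found in the windows of these genes. A match is a description of letters and not a binding site.

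Transcripts of the 2 ligands were highest in different populations. *Csf1* was highest in microglia, the cells that carry the receptor, and *Il34* was highest in mural cells. *Csf1* gave 4921, 5826 and 5095 normalized counts in Mi-340, Mi-343 and Mi-346 (mean 5281 ± 480, SD, n = 3). The neural libraries gave 254, 242 and 292, the mural libraries 244, 195 and 147, and the endothelial libraries 243, 991 and 445. Every microglial library was far above the 9 others, which overlapped each other, and among these Ec-343 was the highest. The difference between microglia and the mean of the other populations was 4.19 on the log2(normalized count + 1) scale (SE 0.34, adjusted p = 2.75e-06, limma), and an exact permutation test of the 3 libraries against 9 gave the smallest p it allows, 0.00455.

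Outside microglia *Csf1* was found at a low level in each of the 3 populations. The means were 4.98% (neural), 3.70% (mural) and 10.6% (endothelial) of the microglial mean. The neural minus endothelial difference was -0.86 (adjusted p = 0.103, limma), which did not pass. It passed without the brain of Mi-340 (-1.32, adjusted p = 0.0419), under quantile normalization (-1.36, adjusted p = 0.0147) and on the reads with edgeR (-1.06, adjusted p = 0.0498) or DESeq2 (-1.11, adjusted p = 0.019), and was -0.27 without the brain of Mi-343 (adjusted p = 0.605). The neural minus mural difference was 0.45 (adjusted p = 0.392), and it turned to -0.078 under quantile normalization. The mural minus endothelial difference was -1.31 on the log2 scale (adjusted p = 0.0397, limma), where 14.3% of all genes tested were called lower in mural cells. This call ended with a block for the brain (adjusted p = 0.0511), with no minimum level for genes (adjusted p = 0.0672) and without the brain of Mi-343 (a difference of -0.79, adjusted p = 0.233) or that of Mi-346 (adjusted p = 0.259). Without Ec-343 alone, which was tried after its value had been seen, the difference was -0.78 (adjusted p = 0.092). The 6 border macrophage markers summed to 97.5, 102 and 279 normalized counts in Ec-340, Ec-343 and Ec-346. Of these *Pf4* was highest in Ec-343 (82.3), *F13a1* in Ec-346 (238) and *Mrc1* in Ec-340 (44.3), and the part of such cells in *Csf1* was not tested.

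*Il34* gave 606, 615 and 935 normalized counts in Mu-340, Mu-343 and Mu-346 (mean 719 ± 188, SD, n = 3). The endothelial libraries gave 51.4, 121 and 1.51, the microglial libraries 0, 4.74 and 12.6, and the neural libraries 0, 0 and 0.528. All 3 mural libraries were above the 9 others, as was the case for 7.25% of all genes tested. Mural cells differed from the mean of the other populations by 7.14 on the log2 scale (SE 1.10, adjusted p = 0.000433, limma; exact permutation p = 0.00455, the smallest allowed). *Il34* was the member called higher in mural cells, 1 of 7, against 19.3% of all genes tested. The neural libraries held 2 reads in all against 2922 in the mural libraries, a ratio of 2190 of the pooled reads after scaling to library size (95% counting interval 606 to 18092).

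Below the mural libraries the order of *Il34* was less certain. Mural and endothelial libraries did not overlap and differed by 4.81 (adjusted p = 0.0211, limma), but the adjusted p rose to 0.0661 to 0.0959 when any 1 brain was left out and to 0.0577 with edgeR on the reads. Endothelial against microglial libraries (2.56, adjusted p = 0.18) and microglial against neural libraries (1.89, adjusted p = 0.247) did not pass. The former difference passed without the brain of Mi-346 (5.06, adjusted p = 0.0153), under quantile normalization (3.44, adjusted p = 0.0407) and with DESeq2 (3.33, adjusted p = 0.0347), while it was 0.98 without the brain of Mi-340 (adjusted p = 0.75) and 1.64 without that of Mi-343 (adjusted p = 0.559). The latter passed with DESeq2 (adjusted p = 0.0171). The endothelial libraries held the 8 mural markers at a summed level of 4059.8 to 7141 normalized counts, against 707209 to 762599 in mural libraries. Most of the endothelial sum was *Rgs5* (6872, 3469 and 5212 in Ec-340, Ec-343 and Ec-346), while *Pdgfrb* gave 0, 0 and 16.6. The part of mural cells in the endothelial *Il34* was not tested. The antisense transcripts *Gm15894* and *Gm15895*, which overlap *Il34*, reached 93.9 and 209 normalized counts in mural libraries, and their part in *Il34* was not tested.

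**Figure D1:**
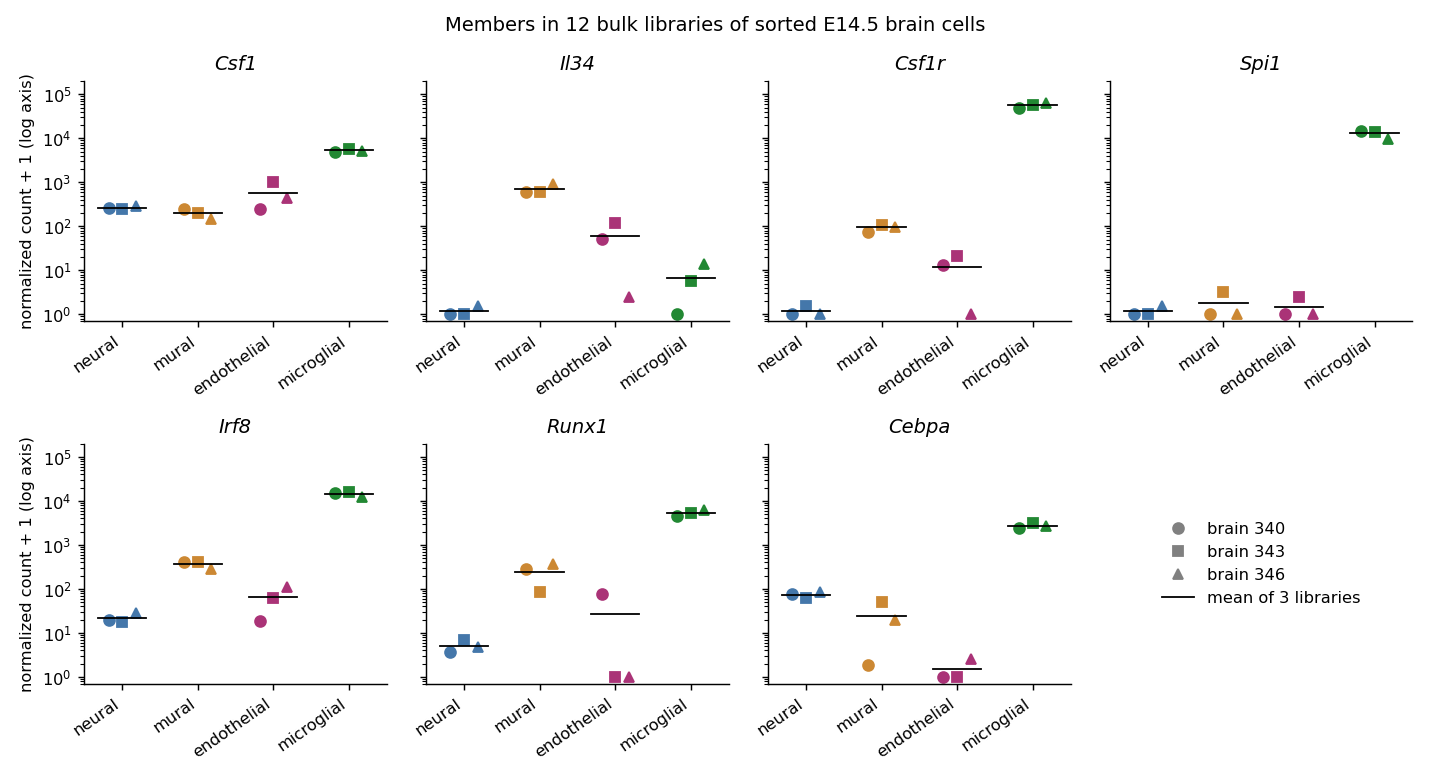
Normalized counts + 1 (log axis) of the 7 genes in the 12 bulk libraries, by population, with a symbol for each brain and a line at the mean of 3 libraries. Microglial libraries are above all others for *Csf1*, *Csf1r*, *Spi1*, *Irf8*, *Runx1* and *Cebpa*, and mural libraries are above all others for *Il34* (606 to 935).

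To compare the ligands with each other, normalized counts were divided by the summed exon length of each gene (5281 bases for *Csf1* and 1959 for *Il34*). On this scale mural cells held 367 ± 95.8 of *Il34* and 37.0 ± 9.21 of *Csf1* per kilobase, and microglia held 2.95 ± 3.25 of *Il34* and 999.9 ± 90.9 of *Csf1* (SD, n = 3). The log2 difference of *Csf1* minus *Il34* per kilobase was -3.31 ± 0.71 in mural cells, with all 3 libraries between -4.10 and -2.74. It was 8.84 ± 1.87 in microglia, 6.40 ± 0.22 in neural cells and 2.81 ± 2.83 in endothelial cells. *Il34* was therefore the more abundant ligand transcript in every mural library and *Csf1* in every other library. The exact permutation test of 3 libraries against 3 gave 0.1 in mural, microglial and neural cells, which is the smallest p it allows, and 0.2 in endothelial cells. In neural cells the value depends on the pseudocount (7.26 with 0.5 and 3.31 with 10), since *Il34* was at or near 0 there.

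**Figure D2:**
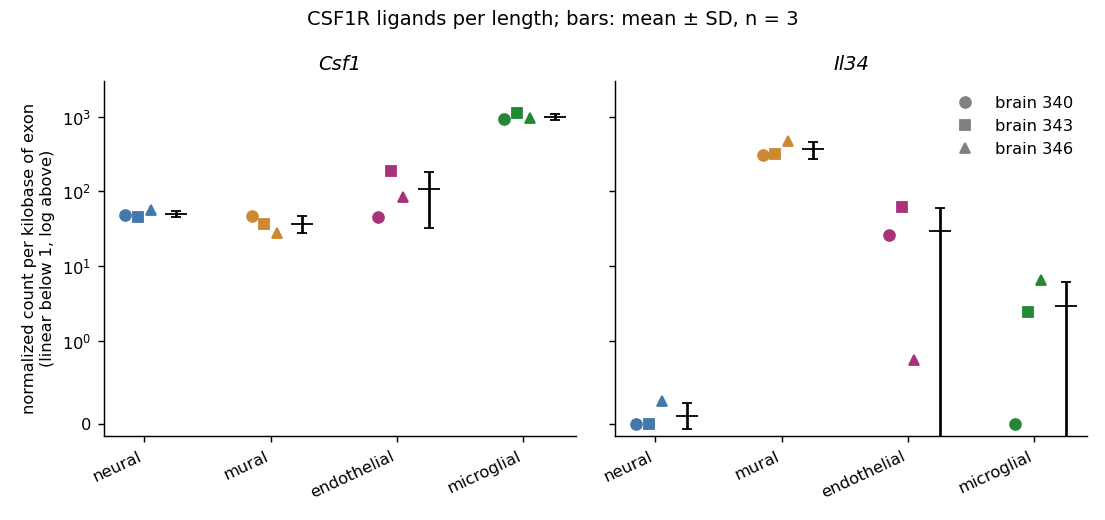
Normalized counts per kilobase of exon (linear below 1, log above) of *Csf1* and *Il34* in the 12 libraries, with mean ± SD of 3 libraries beside the points (bars that reach below 0 run off the axis). *Csf1* peaks in microglia at 999.9 and *Il34* in mural cells at 367.

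Single cells gave the same ligand for each of these 2 gates. At least 1 *Csf1* transcript was found in 45 of 128 microglial cells (35.2%, exact 95% interval 26.9 to 44.1), in 23 of 225 endothelial cells (10.2%, 6.59 to 14.9), in 11 of 210 mural cells (5.24%) and in 1 of 123 neural cells (0.813%). By plate the microglial share was 29.7%, 39.7% and 50%, and each plate was above every other gate. Of the 45 microglial cells with *Csf1*, 44 also held *Csf1r*. Sums per plate and gate differed by 4.60 on the log2 scale between microglia and the mean of the other gates (adjusted p = 4.06e-16, edgeR quasi-likelihood). The plates are not stated to be separate brains, so that these p-values measure the spread between plates. Intervals and limits for shares cover counting error only, and all shares fall with depth. After each cell was thinned to 1500 transcripts the microglial share was 13.3% and the endothelial share 1.78%.

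Endothelial cells held more *Csf1* than neural cells (a neural minus endothelial difference of -3.88, adjusted p = 0.00182, edgeR, where 18.3% of genes were called lower in neural cells), although without plate 2 this was -2.77 (adjusted p = 0.166). The mural minus endothelial difference of *Csf1* in wells was -1.31 (adjusted p = 0.128, edgeR), and with a block for the plate -1.46 (adjusted p = 0.0432). Of the 23 endothelial cells with *Csf1*, 21 also held the endothelial marker *Cldn5* (91.3%, against 86.1% of the 202 cells without *Csf1*). The microglial marker *C1qa* was held by 3 of the 23 (13%) and by 3 of the 202 (1.49%). Among the 23 were 2 wells rich in *Csf1r*, with 1 *Csf1* transcript each.

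*Il34* transcripts were found in 29 of 210 mural cells (13.8%, exact 95% interval 9.45 to 19.2), 37 transcripts in all, and in 0 of 123 neural, 0 of 225 endothelial and 0 of 128 microglial cells. A limit of 3 cells puts the shares of cells with a transcript at up to 2.44%, 1.33% and 2.34%, and the exact 95% intervals reach 2.95%, 1.63% and 2.84%. These are limits for detection and not for cells that express the gene. The plates gave 8.42%, 19.0% and 10% of mural cells, and without plate 2 the share was 8.57%. Against the floor of 3 transcripts over a gate the mural level of 23.9 CPM (transcripts scaled to a common total) was at least 13.2-fold higher than in endothelial cells, at least 10.9-fold higher than in microglia and at least 7.68-fold higher than in neural cells. These limits pool the plates, on which the mural level was 15.8, 30.7 and 13.7 CPM. The exact permutation test of the 3 mural sums against the 9 others gave 0.00455, the smallest p it allows. All 29 of these cells also held *Rgs5* and 27 held *Pdgfrb*, 1 held *C1qa* and 0 held *Cldn5*. Of the 181 mural cells without *Il34*, 172 held *Rgs5*, 139 held *Pdgfrb*, 3 held *C1qa* and 3 held *Cldn5*. After thinning to 1500 transcripts the mural share was 3.81%.

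**Figure D3:**
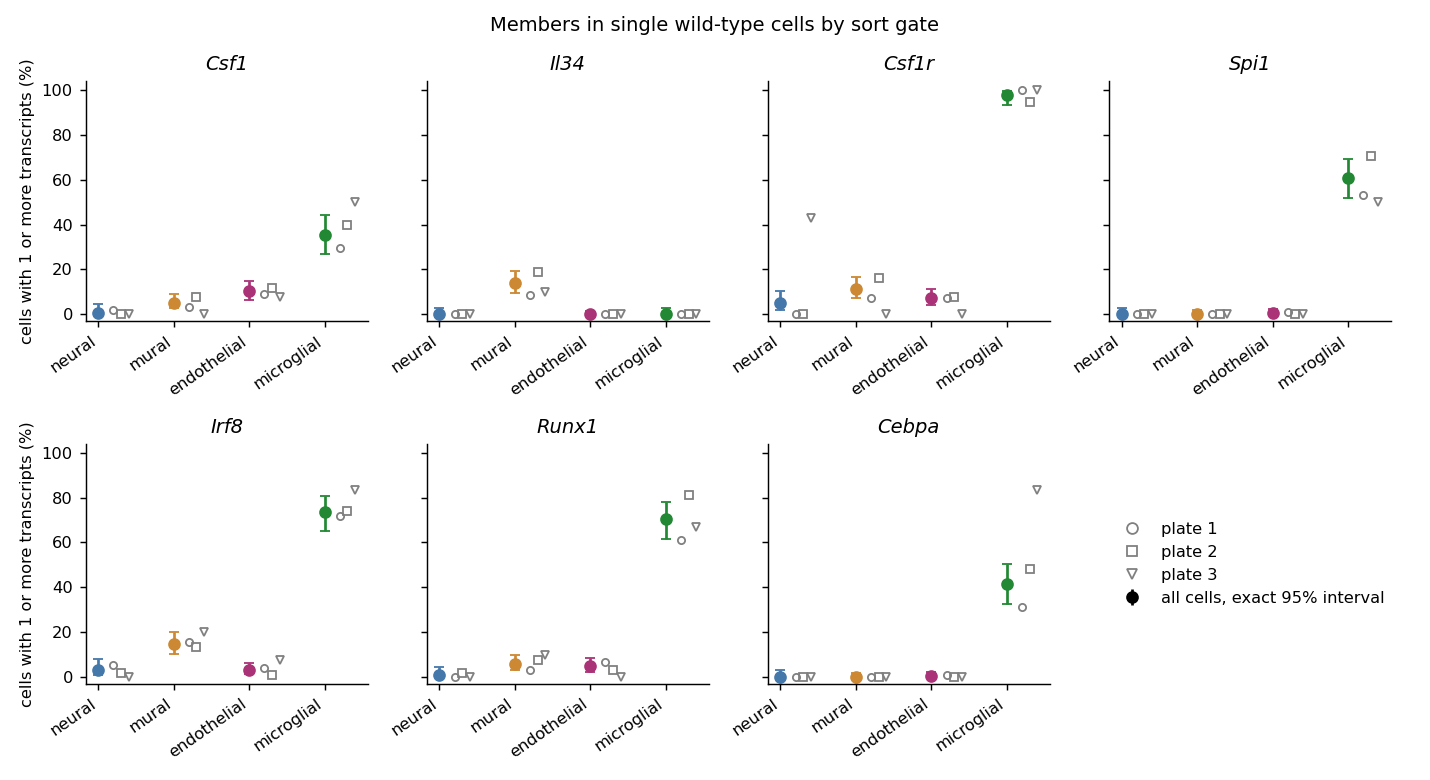
Percent of wild-type cells with 1 or more transcripts of each gene, by sort gate. Filled points are all cells of a gate with the exact 95% interval, and open symbols are the 3 plates. *Il34* appears in the mural gate only (13.8%), *Csf1r* is near 100% in the microglial gate (97.7%), and the neural point of plate 3 for *Csf1r* (42.9%) rests on 6 of 14 cells.

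*Csf1r* had the highest normalized counts of the 7 genes and was found nearly only in microglia. The gene (ENSMUSG00000024621) lies on the plus strand of chromosome 18 from 61100598 to 61132149 in GRCm38, and its exons share 873 bases with *Hmgxb3* on the opposite strand. *Hmgxb3* gave at least 163 normalized counts in every library, also in those where *Csf1r* was at or near 0. The microglial libraries gave 49197, 58040 and 61791 normalized counts in Mi-340, Mi-343 and Mi-346 (mean 56343 ± 6466, SD, n = 3). The mural libraries gave 74.3, 108 and 97.7, the endothelial libraries 12.4, 19.9 and 0, and the neural libraries 0, 0.554 and 0. Mural libraries stood above the other 2 non-microglial populations without overlap, at 0.166% of the microglial mean. Microglia differed from the mean of the others by 12.62 on the log2 scale (SE 0.76, adjusted p = 2.43e-07, limma), a value whose size depends on the pseudocount. The neural libraries held 1 read of *Csf1r* in all.

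Mural libraries exceeded endothelial libraries in *Csf1r* by 3.83 on the log2 scale (adjusted p = 0.0107, limma), and without the brain of Mi-340 the adjusted p was 0.0662. The next protein-coding gene upstream of *Csf1r* on the same strand is *Pdgfrb*, the gene of the surface marker by which mural cells were sorted, 15536 bases away at chr18:61045150-61085061. *Pdgfrb* gave 12456, 10874 and 15771 normalized counts in the 3 mural libraries, 0, 0 and 16.6 in the endothelial libraries and 23.8 to 51.6 in microglia. Whether transcripts of the upstream gene contribute to *Csf1r* counts in mural cells was not tested.

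In wells, *Csf1r* was found in 125 of 128 microglial cells (97.7%, exact 95% interval 93.3 to 99.5), with 2785 transcripts in all. The other gates gave 24 of 210 mural cells (11.4%), 16 of 225 endothelial cells (7.11%) and 6 of 123 neural cells (4.88%). Microglia differed from the mean of the other gates by 7.01 on the log2 scale (adjusted p = 6.48e-23, edgeR quasi-likelihood). The mural minus endothelial difference of *Csf1r* in wells was -1.05 (adjusted p = 0.264, edgeR). It was opposite in sign to that of the bulk libraries and did not pass. The cells outside the microglial gate were unevenly spread over libraries, and the following splits were chosen after seeing the data. In mural cells of libraries that also contained microglial wells 17 of 51 cells (33.3%) held *Csf1r*, against 7 of 159 (4.40%) in libraries without such wells. In neural cells the numbers were 6 of 14 and 0 of 109. *Il34* did not follow that split, with 7 of 51 (13.7%) and 22 of 159 (13.8%) mural cells. Of the 75 endothelial *Csf1r* transcripts, 60 came from 2 wells of plate 1 with 32 and 28 transcripts each, which also held *C1qb* at 46 and 27 and *Cldn5* at 0 and 1. Without these wells 14 of 223 endothelial cells (15 transcripts, 9.13 CPM) remained, against 6.03 CPM in the 159 mural cells. In libraries 4 and 8, wells with the barcode of a microglial well of another library held 6 and 6 *Csf1r* transcripts (63 and 47 wells). The other wells there (29 and 34) held 28, the number of 1 of the 2 wells above, and 1. The part of shared barcodes in these counts was not tested.

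The 4 transcription factor genes were also highest in microglia. With *Csf1* and *Csf1r*, 6 of the 7 genes were called higher in microglia than in the mean of the other populations (limma), where 23.4% of all genes tested were, and all 6 differed over 10-fold, as 8.27% of all genes did. The 3 microglial libraries lay above the 9 others for the same 6 genes, against 11.5% of all genes, and the exact permutation p was 0.00455, the smallest allowed, for each. The remaining gene was *Il34*, at -2.68 (adjusted p = 0.0679, limma), which passed the test with a pseudocount of 10 (-2.21, adjusted p = 0.00977), under quantile normalization or without the brain of Mi-346. In neural libraries 6 of the 7 genes were called lower than in the mean of the others, where 31.2% of all genes were, and *Cebpa* was the exception. That mean includes the microglial level. Against mural libraries alone 4 of the 7 were called lower in neural libraries (25.8% of all genes). *Spi1* and *Csf1* were not called in neural against mural or against endothelial libraries (limma). In single cells all 6 genes tested were called higher in microglia (edgeR), against 22.2% of all genes. *Spi1* and *Cebpa* were tested there through the microglial gate (138 and 105 transcripts), with 3 and 2 in the endothelial gate and 0 in the others. The filter on low counts left out *Il34*, so this count was partly set before the test.

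*Spi1* encodes PU.1, a master regulator of macrophages and microglia. Its microglial libraries gave 14731, 13943 and 9841 normalized counts in Mi-340, Mi-343 and Mi-346. Outside microglia 5 reads were found in 9 libraries, 2 in neural, 2 in mural and 1 in endothelial cells. *Spi1* therefore had the clearest separation of the 4 factors, microglia differing from the others by 13.23 on the log2 scale (SE 0.55, adjusted p = 1.52e-08, limma). Pooled over libraries and scaled to their size, the 31968 microglial reads against 2 mural reads gave a ratio of 27272 (95% counting interval 7549 to 225203). In wells 78 of 128 microglial cells (60.9%) and 1 of the 558 other cells held it, an endothelial-gate cell that is 1 of the 2 wells rich in *Csf1r*.

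*Cebpa* encodes C/EBPα, which acts in the commitment of myeloid progenitors. It gave 2463, 3103 and 2649 normalized counts in Mi-340, Mi-343 and Mi-346. The neural libraries gave 76.1, 59.8 and 84.0, the mural libraries 0.874, 49.1 and 18.8, and the endothelial libraries 0, 0 and 1.51. Neural cells were thus next in order, at 2.68% of the microglial mean, and neural libraries lay above all mural and endothelial ones. The neural minus mural difference of 2.58 had an adjusted p of 0.0502 (limma), which passed with a pseudocount of 10 (1.64, adjusted p = 0.0206) and without the brain of Mi-343 (adjusted p = 0.0472). The neural minus endothelial difference was 5.76 (adjusted p = 0.000614, limma), where 30.6% of all genes tested were called higher in neural cells. The microglial difference from the mean of the others was 7.99 (SE 0.83, adjusted p = 1.68e-05). In wells 53 of 128 microglial cells (41.4%) held *Cebpa*, against 0 of 123 neural cells (2.44% by the limit of 3 cells, exact 95% interval up to 2.95%, for cells with a transcript), so the neural level of the bulk libraries was not detectable at this depth.

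*Irf8* encodes an interferon regulatory factor needed by microglia and other mononuclear phagocytes. It gave 14982, 15679 and 12532 normalized counts in Mi-340, Mi-343 and Mi-346. The mural libraries gave 399, 399 and 282 (mean 360 ± 67.8, SD, n = 3), the endothelial libraries 17.7, 62.5 and 112, and the neural libraries 18.7, 16.6 and 28.0. The mural libraries lay above all endothelial and neural ones, at 2.50% of the microglial mean. Microglia differed from the mean of the others by 7.61 (SE 0.45, adjusted p = 2.07e-07, limma), and mural from endothelial libraries by 2.80 (adjusted p = 0.00323), where 13.5% of all genes were called higher in mural cells. Without the brain of Mi-343 the adjusted p of the latter was 0.0621.

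In wells the mural gate also came next after microglia for *Irf8*. It was found in 94 of 128 microglial cells (73.4%), 31 of 210 mural cells (14.8%, exact 95% interval 10.3 to 20.3), 7 of 225 endothelial cells (3.11%) and 4 of 123 neural cells (3.25%). The mural share was 15.8%, 13.3% and 20% on the 3 plates, each above every endothelial and neural share. Mural sums exceeded endothelial sums by 2.29 on the log2 scale (adjusted p = 0.00108, edgeR), where 9.17% of genes were called higher, and the neural minus mural difference was -2.60 (adjusted p = 0.00126), where 15.4% were called lower. Without plate 1 the adjusted p of the mural minus endothelial difference was 0.0531 and without plate 2 it was 0.239. Of the 31 mural cells with *Irf8*, all 31 held *Rgs5*, 1 held *Csf1r*, 1 held *C1qa*, 4 held *C1qb* (12.9%) and 0 held *Ptprc*, *Cx3cr1* or *Spi1*. Of the 179 mural cells without *Irf8*, 170 held *Rgs5*, 33 held *C1qb* (18.4%), 23 held *Csf1r* and 3 held *C1qa*. In these cells *Cx3cr1* was held by 8, *Ptprc* by 3 and *Spi1* by 0. In mural cells of libraries without microglial wells 25 of 159 (15.7%) held *Irf8*, against 6 of 51 (11.8%) in libraries with such wells.

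*Runx1* encodes a factor of definitive hematopoiesis that also marks the precursors of microglia. It gave 4652, 5222 and 6272 normalized counts in Mi-340, Mi-343 and Mi-346. The mural libraries gave 282, 82.2 and 374 and the neural libraries 2.67, 6.09 and 3.70. Among endothelial libraries only Ec-340 held it, with 76.2, against 0 and 0. Mural libraries lay above all neural and endothelial ones, at 4.57% of the microglial mean. Microglia differed from the mean of the others by 8.35 (SE 1.15, adjusted p = 0.000145, limma). The neural minus mural difference was -5.38 (adjusted p = 0.00761, limma), where 25.8% of all genes tested were called lower in neural cells, with an adjusted p of 0.0916 without the brain of Mi-346. The mural minus endothelial difference was 5.60 (adjusted p = 0.0127, limma), which was lost without the brain of Mi-343 (adjusted p = 0.111) or of Mi-346 (0.202) and with the count tests on the reads (0.0526 with edgeR and 0.078 with DESeq2).

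In wells *Runx1* was found in 90 of 128 microglial cells (70.3%), 12 of 210 mural cells (5.71%), 11 of 225 endothelial cells (4.89%) and 1 of 123 neural cells (0.813%). The mural minus endothelial difference was 0.10 here (adjusted p = 0.946, edgeR). Of the 15 endothelial *Runx1* transcripts, 5 lay in the 2 wells rich in *Csf1r*, and without these 9 of 223 endothelial cells (4.04%) held 10 transcripts, against 16 in mural cells. The neural minus mural difference was -3.0 (adjusted p = 0.0277, edgeR). Of the 12 mural cells with *Runx1* all 12 held *Rgs5*, 1 held *Csf1r* and 0 held *C1qa* or *Ptprc*. Of the 198 mural cells without *Runx1*, 189 held *Rgs5*, 23 held *Csf1r*, 4 held *C1qa* and 3 held *Ptprc*.

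Transcripts of the 4 factors were found together in microglial cells. All 4 were found in 27 of the 128 cells (21.1%), 3 in 41, 2 in 33, 1 in 18 and none in 9. The median depth was 2602 transcripts in cells with none, 7352 with 1, 9813 with 2, 13059.8 with 3 and 11304 with all 4.

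Because *Irf8*, *Runx1* and *Csf1r* were found in mural libraries, their levels there were set beside the markers of other cells. The markers *C1qa*, *C1qb*, *C1qc*, *P2ry12* and *Fcrls* were at 0 in all 3 mural libraries (5 of 10 microglia markers). The summed list was 2.28 to 291 normalized counts in mural libraries (median 0.0365% of the microglial level), most of it in Mu-340 and Mu-346 from *Tmem119* (283 and 109.9 normalized counts, or 2.76% and 1.07% of its microglial mean, against 0 in Mu-343). *Irf8* stood at 2.50%, *Runx1* at 4.57% and *Csf1r* at 0.166% of their microglial means. Of the border macrophage markers, *Pf4*, *Cd163*, *Ms4a7* and *F13a1* were at 0 in all mural libraries, while *Mrc1* gave 727, 380 and 155 normalized counts (1.62% to 7.59% of its microglial mean) and *Lyve1* gave 268, 109.6 and 170 (27.6% to 67.4%), and the part of such cells in the mural levels was not tested. The 6 fibroblast markers summed to 8873 to 11803 normalized counts in mural libraries, most of it *Col3a1* (mean 5837) and *Col1a2* (mean 3469). Of the 6, 4 were called higher in mural cells than in the mean of the others, as were 19.3% of all genes tested. *Pdgfra*, at a mural mean of 0.313, was called lower (-3.42, adjusted p = 0.025, limma), and *Lum* did not pass. The part of fibroblasts in the mural levels was not tested.

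**Figure D4:**
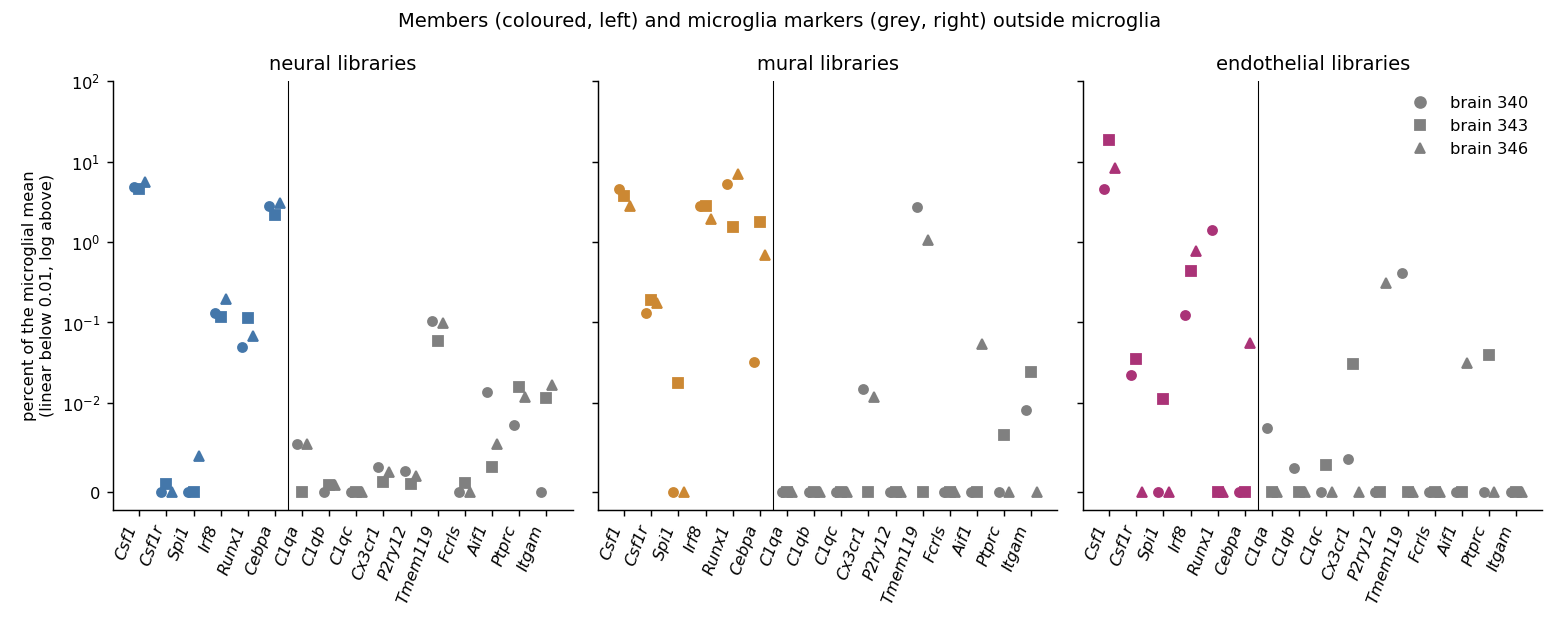
Levels in neural, mural and endothelial libraries as a percent of the mean of the 3 microglial libraries (linear below 0.01, log above), for 6 of the genes described (*Il34*, which is higher in mural cells than in microglia, is left out) and 10 microglia markers. In mural libraries *Irf8* and *Runx1* lie at 2.50% and 4.57% on average, while 5 of 10 markers are at 0 in all 3.

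Most genes of the receptor's signalling pathway were also higher in microglia. A list of 34 proteins at or right below CSF1R was tested, of which 22 were called higher in microglia and 6 lower (23.4% and 22.3% of all genes tested), with a median difference of 2.21 against -0.02 over all genes tested. The largest differences were those of *Tyrobp* (13.72) and *Trem2* (13.64), an adaptor and receptor pair that signals through the kinase SYK. The guanine exchange factor *Vav1* (12.15) and the PI3-kinase adaptor *Pik3ap1* (10.75) came next among the genes reported. Within the Src family members lay on both sides, with *Fgr* (6.16) and *Lyn* (4.68) higher in microglia and *Src* (-2.40) and *Fyn* (-1.27) lower. *Sos1* (-1.17), *Cblb* (-1.09), *Pik3ca* (-1.03) and *Ptpn11* (-0.76), which act in many tyrosine kinase pathways, were lower too. *Yes1*, *Cbl*, *Shc1*, *Pik3r1*, *Akt1* and *Mapk3* did not pass (limma, all of these tests). In wells 17 of 29 tested genes of the list were called higher in microglia, 15 of them also in bulk, and 4 lower (*Fyn*, *Pik3ca*, *Ptpn11* and *Src*), where 22.2% of all genes were higher and 21.2% lower.

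Several of these signalling genes were also found in vascular cells. *Lyn* averaged 1895 normalized counts in mural and 2631 in endothelial libraries, against 8356 in microglia and 6.13 in neural cells. *Pik3cd*, the leukocyte PI3-kinase subunit, averaged 2222 in mural cells and 0.976 in endothelial cells, against 3964 in microglia and 638 in neural cells. The phosphatase gene *Ptpn6* averaged 572 in mural cells and 5.80 in endothelial cells, against 12905 in microglia. Each of these was called higher in microglia than in the mean of the other populations.

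IL-34 is also known to bind the phosphatase PTPRZ1 and the proteoglycan syndecan-1, and the proteases ADAM10 and ADAM17 shed cell surface proteins including CSF1R. *Ptprz1* averaged 10973 normalized counts in neural cells, 521 in mural, 24.6 in endothelial and 69.2 in microglial cells, and was higher in neural cells than in the mean of the others by 7.25 (adjusted p = 1.69e-05, limma). *Sdc1*, which encodes syndecan-1, was lower in microglia, with a difference of -4.79 (adjusted p = 0.00121). *Adam17* (1.5) and *Adam10* (0.50) were higher in microglia than in the mean of the others, although *Adam10* was highest in endothelial cells (a mean of 13797 normalized counts, against 10029 in microglia). Of the 5 genes in this list 2 were higher and 2 lower in microglia (23.4% and 22.3% of all genes tested), and *Vcan* did not pass.

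Among other colony-stimulating factors and class III receptors, 7 of 12 tested genes were higher and 3 lower in microglia than in the mean of the others, where 23.4% of all genes were higher and 22.3% lower. The higher ones were the receptor beta chain genes *Csf2rb* (10.51) and *Csf2rb2* (8.70), *Csf3r* (9.35), *Flt3* (6.63), *Csf2ra* (4.14), the ligand *Flt3l* (1.40) and *Il3ra* (0.80), which was highest in endothelial cells (a mean of 993 normalized counts, against 448 in microglia). *Kit* (-5.41), its ligand *Kitl* (-3.90) and *Pdgfrb* (-2.52) were lower. *Csf2* and *Il3*, the ligands of the beta chain receptors, were listed at 0 in all 12 libraries. The 6 monocyte and neutrophil markers summed to 3052 to 10111 normalized counts in microglial libraries, and the part of such cells in the receptor genes was not tested.

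Of 36 tested genes among 40 other myeloid transcription regulators, 29 were called higher in microglia and 1 lower (23.4% and 22.3% of all genes), with a median difference of 3.45. *Ikzf1* (10.37), *Irf5* (9.64), *Tfec* (9.07) and *Mitf* (7.54) had the largest differences, and *Bhlhe40* (-1.40) was the lower gene. *Runx2*, a relative of *Runx1*, had a microglial difference of -1.29 that did not pass (adjusted p = 0.141) and was called higher in mural cells by 4.81 (adjusted p = 0.000223, limma), with a mean of 103 normalized counts there. *Cbfb*, the partner subunit of RUNX proteins, did not pass (0.44, adjusted p = 0.107). In wells 25 of 27 tested regulators were called higher in microglia, where 22.2% of all genes were, 22 of them also in bulk. Of 8 IRF genes, 7 were higher in microglia in bulk, and *Irf1* did not pass. Mural cells did not share the *Irf8* pattern in *Irf5*, the IRF gene with the largest difference, which averaged 3.59 normalized counts in mural and 78.7 in endothelial cells.

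**Figure D5:**
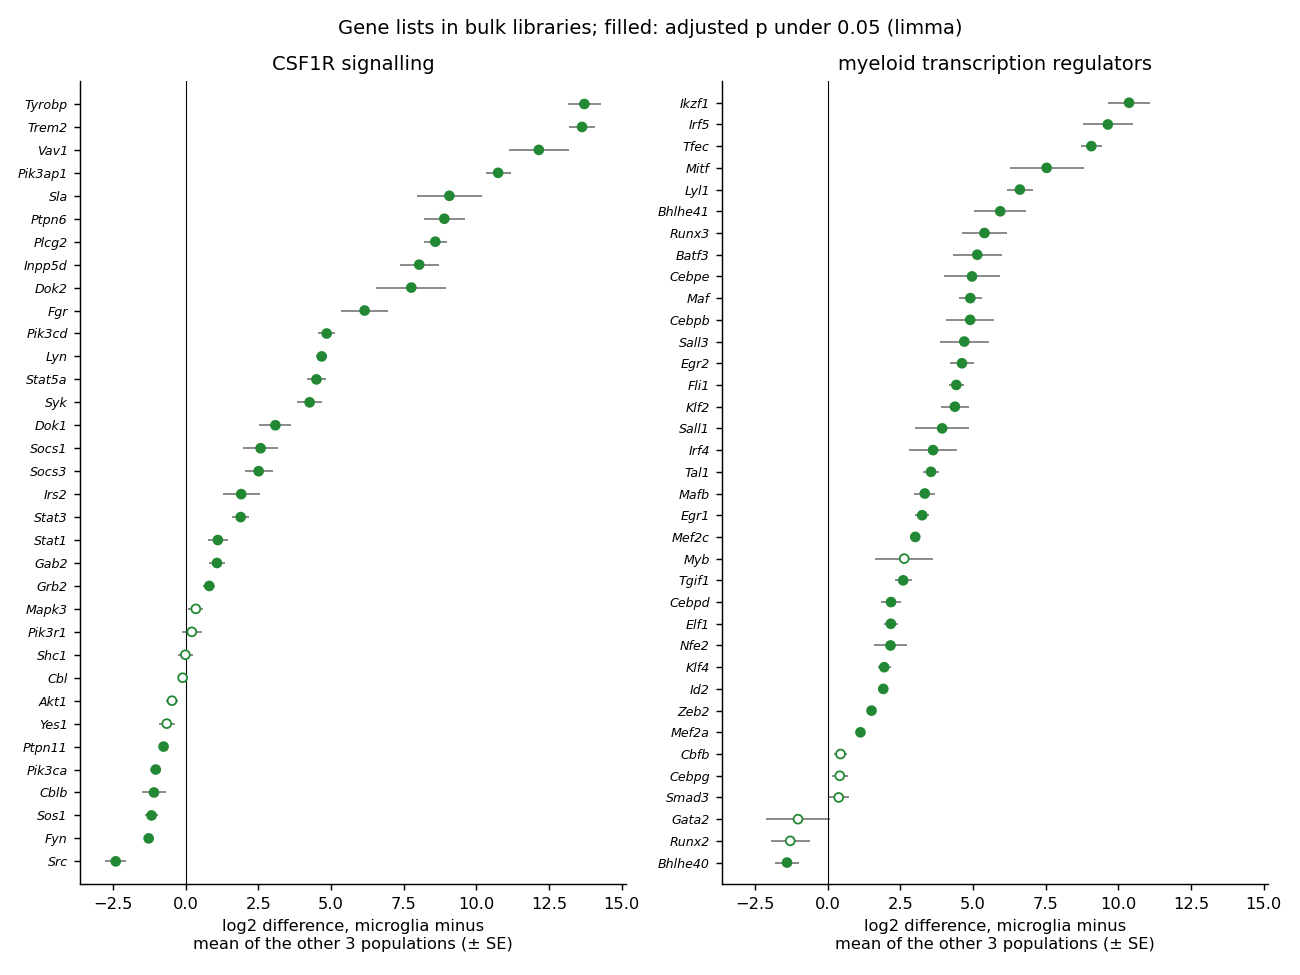
Difference between microglia and the mean of the other 3 populations in bulk (log2 of normalized count + 1, ± SE) for the CSF1R signalling list and the tested myeloid transcription regulators. Filled points have an adjusted p under 0.05 (limma). *Tyrobp* (13.72) and *Ikzf1* (10.37) lead the lists, and *Src* (-2.40) and *Bhlhe40* (-1.40) have the lowest values.

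The genes most like each member over the 12 libraries were found by Pearson's correlation of log2 values, as a description over 12 libraries that share 4 populations. *Csf1* was most like *Bin2* (r = 0.983), *Arl11* and *Rbm47*. *Il34* was most like *Ikbip* (0.972), *Tns1* and *Tbxa2r*, the thromboxane receptor gene, which averaged 2361 normalized counts in mural cells. *Csf1r* was most like *Gab3* (0.982), *Asah1* and *Mgll*, and *Spi1* was most like *Siglech* (0.997), *Fcgr2b* and *Fcgr3*. *Irf8* was most like *Dnajb1* (0.988), *Arhgap9* and *Soat1*, *Runx1* was most like *Plcb2* (0.983), *Cd101* and *Egr2*, and *Cebpa* was most like *Coa5* (0.98), *Rab27a* and *Plekhb2*. The genes named for *Irf8* and *Runx1* were, like them, highest in microglia and next highest in mural cells, which follows from their choice by correlation. Among them *Arhgap9* averaged 3644 and 137 and *Plcb2* 3925 and 180.4 normalized counts in microglia and mural cells.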

How the data were processed

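Bulk values were deposited as normalized counts, a linear signal that the authors made from read counts, each being a whole number of reads divided by a factor of its library (100% of 124078 values up to 100 reads were whole within 0.01). For wells the deposited values are expected counts (identifiers corrected by the authors for repeated draws), which were rounded. The submitters' processing notes name BWA 0.6.2-r126, STAR, featureCounts, DESeq2 and mm10, with no roles. Genes were matched to GENCODE vM21 (53274 of 53465). The 7 genes, the lists and the rule for named genes (the 7 genes, for each list the largest and smallest differences and those against the rest, and the 3 most correlated genes) were chosen with earlier results of these data known. Populations were compared with limma 3.58.1 (R 4.3.3) on log2(normalized count + 1) for genes with a mean of at least 10, each population against the mean of the other 3 and in pairs, with Benjamini-Hochberg adjustment over all genes and calls at 0.05. Wells were summed by gate within each plate and tested by edgeR 4.0.16 quasi-likelihood. In the lists 4 genes are not reported here and were left out of their counts and sums. All tests were two-sided, and differences with genes at or near 0 depend on the pseudocount and are no bounds. Intervals of shares are 95% Clopper-Pearson intervals (exact), and a count of 0 was taken to allow 3 cells. Libraries of the same number were taken as the same brain, from their labels. Their residual correlations over 18 pairs ran from -0.054 to 0.0801 (median 0.00637). Alternatives were quantile normalization, another pseudocount or minimum, edgeR and DESeq2 1.42.0 on recovered reads, thinning, a block for the brain or plate, and leaving out each brain or plate. Methods were tested on simulated data. Python 3.11.15, numpy 2.4.6, pandas 2.3.3, scipy 1.17.1 and matplotlib 3.10.9 were used.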

Additional observations from a re-analysis of the deposited data

Results flagged for a closer look

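The single-cell libraries hold 1056 barcodes that the well table does not list, and these carried transcripts of some of the 7 genes above the floor of 3 transcripts. *Csf1r* had 38 transcripts there, against 2934 on listed barcodes, and *Irf8* had 4, against 305. Pooled over libraries these are 1.28% and 1.29% of the transcripts of each gene, below the 1.83% of all transcripts that lay on such barcodes. The libraries differed in *Csf1r*. In libraries 1, 3, 5, 7 and 9 there were 3, 7, 9, 6 and 5 such transcripts, against 1, 34, 7, 0 and 0 on listed barcodes. In libraries 2, 4, 6, 8, 10 and 12 there were 4, 0, 3, 1, 0 and 0, against 1418, 34, 1283, 9, 4 and 144. *Csf1*, *Runx1* and *Cebpa* had 2 transcripts each, and *Il34* and *Spi1* had 0.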

How the results depend on the processing

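The differences of *Csf1* and *Csf1r* between microglia and the mean of the others, that of *Il34* between mural cells and the mean of the others, and the count of 6 genes called higher in microglia, in bulk and in wells, kept their direction and their side of the threshold under every alternative run. Over 361 values of single differences under alternatives, 318 kept both, 28 no longer passed, 14 came to pass and 1 changed sign, that of *Csf1* between neural and mural libraries (0.45, and -0.078 under quantile normalization). With a replicate block for the brain or plate 2 calls changed, both of *Csf1* between mural and endothelial cells (-1.31, adjusted p = 0.0511 by limma in bulk, and -1.46, adjusted p = 0.0432 by edgeR in wells), and no other. The DESeq2 scaling moved the median of all genes by -0.11 in neural libraries and quantile normalization by -0.25, 0.15 and 0.11 in neural, mural and endothelial libraries. Of genes called in mural cells 3821 were higher and 4485 lower by limma, against 4184 and 2805 by edgeR on the reads, and for endothelial cells these were 3892 and 4430 against 4115 and 2514. Cells with at most 1500 transcripts were left out, and plate 3 held few cells. After thinning to 1500 transcripts the microglial share of *Csf1* fell from 35.2% to 13.3%.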
